A study of Mus musculus with 4 samples.

Results

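The genes described here carry glucose into the cell and control its use in glycolysis: the glucose transporters Slc2a1, Slc2a3 and Slc2a6, the hexokinases Hk1, Hk2 and Hk3, the control enzymes Pfkfb3, Pkm and Ldha, and the oxygen-regulated transcription factor Hif1a. They were taken by symbol, and all 10 were on the array, among 18193 genes that had a probe set annotated to a single symbol. A probe set is the group of short oligonucleotides that reports 1 transcript region. The 10 genes had 21 such probe sets, and 1 further probe set that lists Hk1 together with ribosomal protein genes was left out. RNA was measured on 4 single-channel oligonucleotide arrays of dendritic cells (DCs), which had been grown from C57/BL6 mouse bone marrow for 6 to 7 days with the growth factor GM-CSF at 20 ng/mL and selected with CD11c beads. Combined deficiency of the liver X receptors LXRalpha and LXRbeta (LXR-DKO) was set against LXR wild-type cells (WT). For the last 24 h each culture had GM-CSF at 10 ng/mL, either with the Toll-like receptor 4 ligand lipopolysaccharide (LPS) at 100 ng/mL or without it (control). The 4 groups are LXR-DKO LPS, LXR-DKO control, WT LPS and WT control, with 1 array each. The labels give no age or sex, no number of mice per culture and no construct for the LXR alleles. With 1 array in a group there is no replicate check and no p-value, so every difference below is between these arrays, whose small number sets the precision.

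Glucose enters cells through facilitative transporters of the SLC2A (GLUT) family, is trapped as glucose phosphate by hexokinases, and is broken down through a committed step at phosphofructokinase to pyruvate, which lactate dehydrogenase can turn into lactate. DCs that meet LPS are known to raise glucose uptake and lactate release, and the hypoxia-inducible factor HIF-1, whose regulated subunit is the product of Hif1a, is a known activator of many genes of this route. LXRs are oxysterol-activated nuclear receptors best known for control of cholesterol and fatty acid genes.

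The deposited signals are linear and had a common trimmed mean on the 4 arrays. Values under 28.9, the median of all signals, were raised to this floor, and a ratio that contains such a value is given as "at least". A gene is represented by its brightest probe set, and was counted when its ratio was 2-fold or more, a log2 ratio of 1. The SD of log2 ratios among probe sets of one gene is the only internal error. It was 0.42 for LPS over control in LXR-DKO, 0.29 for LPS over control in WT, 0.54 for LXR-DKO over WT with LPS, 0.45 for LXR-DKO over WT without LPS, and 0.43 for the difference of the LPS responses. It covers differences within the arrays and not between cultures. All 10 genes reached the floor on all 4 arrays with their brightest probe set.

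The arrays also differed in ways that go with genotype. The signal of Nr1h3, which encodes LXRalpha, was 27.0 in LXR-DKO LPS, 40.4 in LXR-DKO control, 54.5 in WT LPS and 108.6 in WT control; where its probe set lies relative to the deletion was not known, so it does not check the labels. Xist, the transcript of the inactive X chromosome, had signals of 2090.4 in LXR-DKO LPS and 2750 in LXR-DKO control, against 22.7 in WT LPS and 30.8 in WT control, while the Y-linked gene Eif2s3y lay between 279.6 and 384.3 in LXR-DKO and between 721 and 736.6 in WT. Of the 10 conventional DC markers on the array, 10 in LXR-DKO LPS and 9 in LXR-DKO control reached the floor, against 8 in each WT culture, where Flt3 and Dpp4 did not; Itgax, which encodes CD11c, lay between 3848.1 and 6093.0 throughout. Their signals summed to 38180.7 in LXR-DKO LPS and 29896.6 in LXR-DKO control, against 17152.4 in WT LPS and 16862.4 in WT control. Conventional DC markers at least 2-fold higher in LXR-DKO numbered 7 of 10 with LPS and 6 of 9 without, with 0 lower. Set against WT on the log2 scale, the median of these markers in LXR-DKO lay at 2.14 with LPS and 1.77 without. Of the 10 neutrophil markers, 8 with LPS and 6 without were 2-fold or more higher in LXR-DKO and 1 was lower, Mmp8; all 10 reached the floor in both LXR-DKO cultures, against 4 in WT LPS and 7 in WT control. Their signals summed to between 20727.1 and 21641.1 in LXR-DKO, against between 9960.7 and 11781.3 in WT, but Mmp8 made up most of the WT sums, with 3769.1 in LXR-DKO LPS, 3829.7 in LXR-DKO control, 9716.4 in WT LPS and 7882 in WT control. S100a9 had 5366.3 in LXR-DKO LPS, 5734.3 in LXR-DKO control, 24.8 in WT LPS and 106.4 in WT control. The 6 B cell markers summed to between 3423.6 and 5860.5 in LXR-DKO, against between 164.4 and 266.8 in WT. Ighm made up most of these LXR-DKO sums, with 4119.2 in LXR-DKO LPS and 2911.2 in LXR-DKO control. Of the B cell markers measured, 4 of 6 with LPS and 4 of 5 without were 2-fold or more higher in LXR-DKO and 0 lower. The 8 mast cell, basophil and eosinophil markers summed to between 1871.2 and 2532.4 in LXR-DKO, against between 421.3 and 556.3 in WT. The 10 macrophage and monocyte markers summed to 43495.4 in LXR-DKO LPS, 48612.4 in LXR-DKO control, 46957.3 in WT LPS and 31760.1 in WT control, and all 10 reached the floor in both LXR-DKO cultures, against 7 in WT LPS and 9 in WT control. Single members differed more than these sums: C1qa had 2680.3 in LXR-DKO LPS, 5335.4 in LXR-DKO control, 1.5 in WT LPS and 18.0 in WT control, and Cd68 had 2139.2 in LXR-DKO LPS, 2836.3 in LXR-DKO control, 8902.7 in WT LPS and 7043.9 in WT control. In both conditions 4 of the 10 were 2-fold or more higher in LXR-DKO and 1 was lower. Of 6 T and NK cell markers, 4 were below the floor on all arrays. The 7 cell division genes summed to 7933.0 in LXR-DKO LPS, 12036.1 in LXR-DKO control, 1502.0 in WT LPS and 6950.7 in WT control. The part of these differences in any result below was not tested, and in bulk RNA fewer cells of a type cannot be told apart from less RNA per cell. The ratio of 3' to 5' control signals for Gapdh, a sign of RNA quality, was 0.819 in LXR-DKO LPS, 0.757 in LXR-DKO control, 0.842 in WT LPS and 0.818 in WT control. That for actin was 1.28 in LXR-DKO LPS, 1.14 in LXR-DKO control, 1.26 in WT LPS and 1.11 in WT control, so both were higher with LPS in each genotype, and their part in the LPS ratios was not tested.

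**Figure D1:**
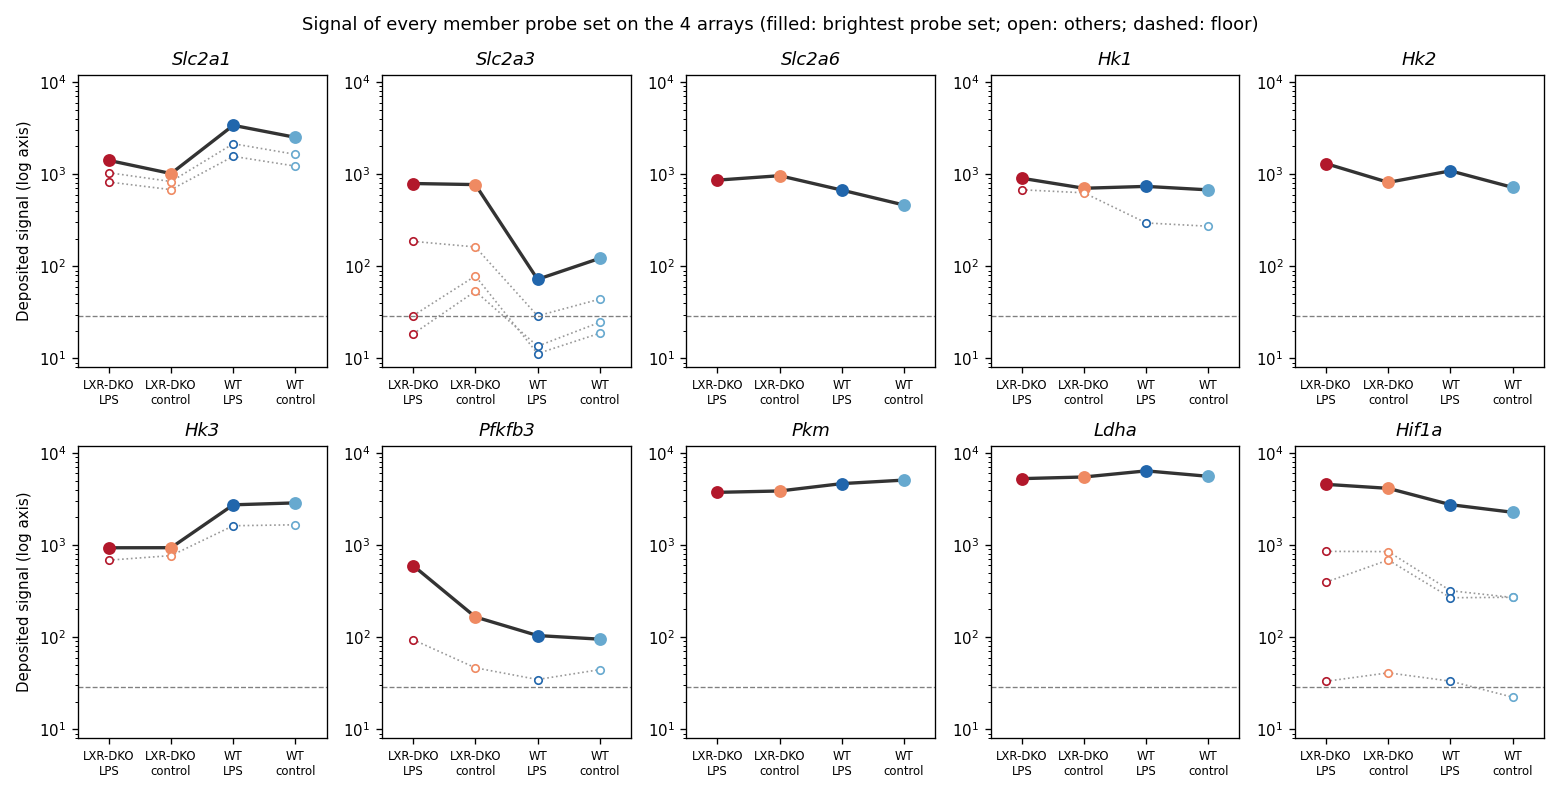
Deposited signal on a log axis for each probe set of the 10 genes on the 4 arrays, 1 array per group; filled points with a solid line are the brightest probe set, open points with a dotted line the others, and the dashed line is the floor of 28.9. Slc2a1 and Hk3 lie lower in both LXR-DKO cultures than in both WT cultures, Slc2a3 and Hif1a lie higher by their brightest probe set, and Pfkfb3 stands out in LXR-DKO LPS at 597.5.

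The promoters of 4 of these genes are shown because their transcripts differed in opposite ways between the cultures or, for Ldha, hardly at all. Sequences are from RefSeq (GRCm38.p6), in windows of 250 bases before to 50 bases after a start, and 13 windows matched 9 of the 10 genes, all but Slc2a3. They are written 5′ to 3′ on the strand of the gene, and capitals mark ACGTG and GCGTG on either strand, the core of the element that HIF binds. CACGTG, the E-box, contains ACGTG on both strands, so an E-box counts as 2 core matches.

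Slc2a1, chr4:119108495-119108794, plus strand, lower in LXR-DKO: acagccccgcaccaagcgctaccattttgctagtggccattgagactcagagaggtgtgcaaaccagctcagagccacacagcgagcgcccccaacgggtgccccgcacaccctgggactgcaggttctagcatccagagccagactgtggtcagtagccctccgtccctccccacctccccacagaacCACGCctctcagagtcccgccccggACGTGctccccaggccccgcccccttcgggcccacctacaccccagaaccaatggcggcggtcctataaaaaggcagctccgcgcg
Hk3, chr13:55021336-55021635, minus strand, lower in LXR-DKO: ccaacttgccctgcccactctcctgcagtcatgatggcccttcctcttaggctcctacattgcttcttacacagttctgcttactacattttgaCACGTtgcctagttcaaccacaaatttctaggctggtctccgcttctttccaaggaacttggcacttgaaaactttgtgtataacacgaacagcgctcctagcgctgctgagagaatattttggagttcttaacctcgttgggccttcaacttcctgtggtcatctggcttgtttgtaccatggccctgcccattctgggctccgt
Pfkfb3, upstream start, chr2:11553880-11554179, minus strand, higher in LXR-DKO LPS: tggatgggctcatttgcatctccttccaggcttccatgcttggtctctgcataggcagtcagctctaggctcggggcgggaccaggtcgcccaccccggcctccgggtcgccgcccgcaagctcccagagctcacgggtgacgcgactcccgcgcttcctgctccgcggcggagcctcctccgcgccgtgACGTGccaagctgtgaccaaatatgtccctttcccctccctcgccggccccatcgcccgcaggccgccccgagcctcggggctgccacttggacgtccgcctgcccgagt
Pfkfb3, downstream start, chr2:11502041-11502340, minus strand: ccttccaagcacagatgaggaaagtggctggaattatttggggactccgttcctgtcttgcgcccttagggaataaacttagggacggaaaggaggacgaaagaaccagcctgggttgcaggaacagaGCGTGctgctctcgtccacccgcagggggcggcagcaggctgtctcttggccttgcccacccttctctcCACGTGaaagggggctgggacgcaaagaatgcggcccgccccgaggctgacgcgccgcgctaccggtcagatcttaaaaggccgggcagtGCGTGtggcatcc
Ldha, upstream start, chr7:46845554-46845853, plus strand, little difference: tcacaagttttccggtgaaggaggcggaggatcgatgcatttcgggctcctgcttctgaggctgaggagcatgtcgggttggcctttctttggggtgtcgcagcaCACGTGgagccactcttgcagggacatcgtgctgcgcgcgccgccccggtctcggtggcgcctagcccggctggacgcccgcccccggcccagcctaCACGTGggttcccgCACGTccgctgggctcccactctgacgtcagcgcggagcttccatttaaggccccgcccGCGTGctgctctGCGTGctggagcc

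ACGTG or GCGTG occurred in 11 of the 13 windows and in all 9 genes with a window, against 43.8% of the 32851 windows of the same length in the table. That share is of windows and not of genes, and the windows were not matched for base composition. The route is a known target of HIF, so nothing is read from the excess. Counting both cores, the Ldha window printed above held 7 matches, the downstream Pfkfb3 window 4, the Slc2a1 window 2, and the Hk3 window and the upstream Pfkfb3 window 1 each. Windows not printed held 4 matches for Slc2a6, 2 for Hk2, 3 for Hif1a, 5 and 0 for the 2 starts of Hk1, 2 and 0 for those of Pkm and 2 for the other Ldha start. The E-box CACGTG occurred in 3 of 13 windows, those of Ldha, Hif1a and Pfkfb3, and in 7.15% of all windows. The AP-1 motif TGANTCA occurred in 0 of 13 windows (7.81% of all), the kappaB consensus in 1 of 13, an Hk1 window (8.46% of all), and the DR4 element that LXRs bind in 0 of 13 (0.0152% of all), all searched on both strands. Only AGGTCA half-sites 4 bases apart were taken as DR4, which 5 of the 32851 windows held. So strict a search of 13 short windows cannot show that these genes lack LXR sites. The matches are letters in a window and not measured binding, and the arrays do not tell which start was used.

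Between the genotypes the 10 genes differed in both directions. With LPS, 2 of the 10 genes passed 2-fold upward in LXR-DKO over WT (Slc2a3 and Pfkfb3), where 17.8% of the 12014 genes measured did, and 2 passed it downward (Slc2a1 and Hk3), where 8.76% of all genes did; in either direction 26.6% of all genes passed. Without LPS, 2 passed upward (Slc2a3 and Slc2a6), against 12.7% of 11728 genes, and 2 downward (Slc2a1 and Hk3), against 9.28%, with 22.0% of all genes in either direction. The median log2 ratio of LXR-DKO over WT for the 10 genes was 0.28 with LPS, beside 0.15 for all genes, and 0.12 without LPS, beside 0.05. With 10 genes, 1 gene more or fewer moves such a share by 10 percentage points, and nothing particular to these genes is read from it.

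Of the 4 genes apart without LPS, 3 were transporters, and they went both ways. Slc2a1 (chr4:119108745-119137330), the housekeeping transporter GLUT1, had signals of 1412.9 in LXR-DKO LPS, 1016.7 in LXR-DKO control, 3394.8 in WT LPS and 2512.8 in WT control. Both LXR-DKO cultures were thus below both WT cultures, 2.40-fold with LPS and 2.47-fold without LPS. All 3 of its probe sets were lower in LXR-DKO in both conditions, by 1.90-fold to 2.40-fold with LPS and by 1.80-fold to 2.47-fold without. The 2-fold mark was reached by 2 of the 3 with LPS and 1 of the 3 without, so the call depends on the probe set.

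Slc2a3 (chr6:122727809-122802363), the high-affinity transporter GLUT3, had signals of 792.9 in LXR-DKO LPS, 771.7 in LXR-DKO control, 72.3 in WT LPS and 122.2 in WT control by its brightest probe set. Both LXR-DKO cultures were far above both WT cultures, with log2 ratios of 3.46 with LPS and 2.66 without LPS. Of all genes measured, 1.21% had a higher ratio with LPS and 1.71% without. The next brightest probe set had 186.7 in LXR-DKO LPS, 162.4 in LXR-DKO control, 29.0 in WT LPS and 44.1 in WT control, and was 6.44-fold higher in LXR-DKO with LPS and 3.68-fold without. The manufacturer's suffixes mark both as probe sets that can bind transcripts of other genes.

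The other Slc2a3 probe sets were dim. The only one without a suffix had 29.2 in LXR-DKO LPS, 78.6 in LXR-DKO control, 11.3 in WT LPS and 18.8 in WT control. The last had 18.5 in LXR-DKO LPS, 53.7 in LXR-DKO control, 13.6 in WT LPS and 24.7 in WT control. Without LPS they were at least 2.72-fold and at least 1.86-fold higher in LXR-DKO, so all 4 probe sets of Slc2a3 were higher. With LPS both were near or below the floor in both genotypes, so the difference with LPS rests on the 2 brighter probe sets.

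Slc2a6 (chr2:27021363-27028000), the transporter GLUT6, found on lysosomal membranes of macrophages, had signals of 863.0 in LXR-DKO LPS, 963.9 in LXR-DKO control, 672.2 in WT LPS and 463.0 in WT control on its single probe set. Both LXR-DKO values exceeded both WT values. It was 1.28-fold higher in LXR-DKO with LPS and 2.08-fold higher without LPS. The log2 ratio without LPS of 1.06 became 0.87, under the 2-fold mark, with arrays brought to one 75th percentile.

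Of the hexokinases, Hk3 alone passed 2-fold between genotypes by the brightest probe set. Hk3 (chr13:55005985-55021475), an isoform of blood cells, had signals of 933.7 in LXR-DKO LPS, 935.3 in LXR-DKO control, 2731.6 in WT LPS and 2867.0 in WT control, on a probe set whose suffix marks possible binding of other transcripts. The probe set without a suffix gave 685.1 in LXR-DKO LPS, 767.4 in LXR-DKO control, 1619.5 in WT LPS and 1658.2 in WT control. In both the LXR-DKO cultures were below the WT cultures, by 2.93-fold and 2.36-fold with LPS and by 3.07-fold and 2.16-fold without LPS.

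Hk1 (chr10:62268855-62379920), the ubiquitous isoform that binds mitochondria, depended on the probe set. The brightest had signals of 904.6 in LXR-DKO LPS, 704.2 in LXR-DKO control, 737.8 in WT LPS and 676.4 in WT control, ratios of LXR-DKO over WT of 1.23-fold with LPS and 1.04-fold without. The other had 677.8 in LXR-DKO LPS, 628.5 in LXR-DKO control, 295.9 in WT LPS and 272.6 in WT control and was 2.29-fold higher in LXR-DKO with LPS and 2.31-fold without. Both carry the suffix for several transcripts of one gene, and which transcripts of Hk1 each reports was not known here. Hk2 (chr6:82725025-82774454), the inducible isoform, had signals of 1303.2 in LXR-DKO LPS, 816.1 in LXR-DKO control, 1087.9 in WT LPS and 719.1 in WT control. Both LPS cultures were above both control cultures, while the ratio of LXR-DKO over WT was 1.20-fold with LPS and 1.13-fold without. The genotype ratios of Hk2 and of the brightest Hk1 probe set turned just below 0 with 75th percentile scaling.

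Pfkfb3 (chr2:11471430-11554071), whose product makes the sugar bisphosphate that activates phosphofructokinase, was high in a single culture. Its signals were 597.5 in LXR-DKO LPS, 165.6 in LXR-DKO control, 104.1 in WT LPS and 95.1 in WT control. The dimmer probe set had 93.8 in LXR-DKO LPS, 46.5 in LXR-DKO control, 34.7 in WT LPS and 44.4 in WT control. In both, LXR-DKO LPS was the highest of the 4 arrays, by 2-fold or more over the next. With LPS, Pfkfb3 was 5.74-fold higher in LXR-DKO than in WT by the brightest and 2.70-fold by the dimmer probe set, while without LPS it was 1.74-fold and 1.05-fold higher. Of all genes, 3.30% had a higher ratio with LPS.

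The last enzymes of the route were close to level. Pkm (chr9:59656576-59679372), the pyruvate kinase of most cells outside the liver, had signals of 3730.7 in LXR-DKO LPS, 3860.2 in LXR-DKO control, 4641.6 in WT LPS and 5067.7 in WT control. Ldha (chr7:46842274-46855627), whose product makes lactate from pyruvate, had 5256.6 in LXR-DKO LPS, 5476.9 in LXR-DKO control, 6381.7 in WT LPS and 5566.8 in WT control. Across the 4 arrays Pkm spanned 1.36-fold and Ldha 1.21-fold. The log2 ratios of LXR-DKO over WT were -0.32 with LPS and -0.39 without for Pkm, and -0.28 with LPS and -0.02 without for Ldha. All 4 were smaller than the spread between probe sets. Under hybridisation control scaling the sign turned for Ldha in both conditions and for Pkm with LPS, and under quantile normalization for Ldha without LPS.

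Hif1a (chr12:73901324-73947554) had signals of 4555.5 in LXR-DKO LPS, 4123.2 in LXR-DKO control, 2741.0 in WT LPS and 2266.0 in WT control by its brightest probe set. Both LXR-DKO cultures were above both WT cultures, by 1.66-fold with LPS and 1.82-fold without LPS, under the 2-fold mark. The next probe set, without a suffix, had 853.7 in LXR-DKO LPS, 848.3 in LXR-DKO control, 319.2 in WT LPS and 269.5 in WT control, 2.67-fold higher in LXR-DKO with LPS and 3.15-fold without. Another had 395.8 in LXR-DKO LPS, 688.3 in LXR-DKO control, 267.8 in WT LPS and 270.9 in WT control, and the dimmest stayed between 22.3 and 41.0. Without LPS all 4 probe sets were higher in LXR-DKO, 2 of them by 2-fold or more, and with LPS 3 of 4 were higher and 1 reached 2-fold.

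**Figure D2:**
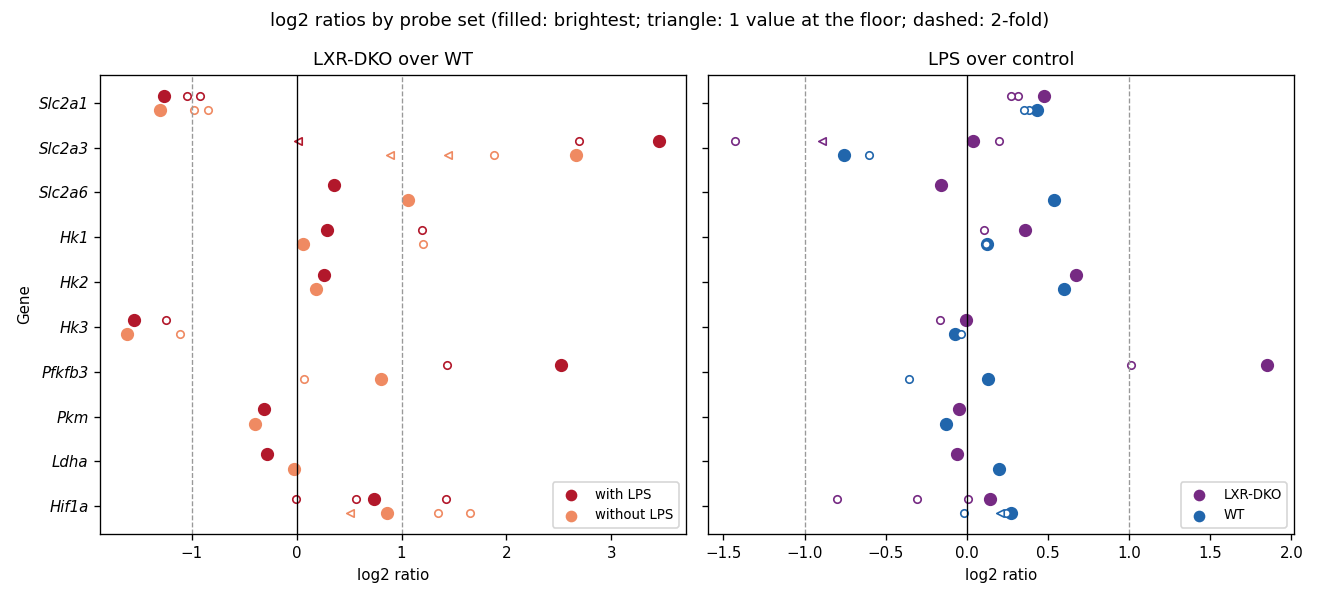
log2 ratio of each probe set of the 10 genes, LXR-DKO over WT at left and LPS over control at right; filled points are the brightest probe set, open points the others, triangles mark ratios with a value at the floor and dashed lines 2-fold. Slc2a1 and Hk3 lie left of 0 in both conditions with all their probe sets, and Pfkfb3 in LXR-DKO has the highest LPS ratio at 1.85.

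The LPS response of these genes was small except for Pfkfb3 in LXR-DKO. In LXR-DKO 1 of the 10 genes passed 2-fold upward with LPS, where 6.23% of 11793 genes did, and 0 passed it downward, where 1.82% did; in either direction 8.06% of all genes passed. In WT 0 passed upward, against 2.93% of 11449 genes, and 0 downward, against 4.79%, with 7.72% of all genes in either direction. The median log2 ratio of LPS over control was 0.09 in LXR-DKO and 0.16 in WT, beside 0.02 and -0.05 for all genes. Pfkfb3 was 3.61-fold higher with LPS in LXR-DKO, a log2 ratio of 1.85 that 2.06% of genes exceeded, and 1.09-fold higher in WT. Its dimmer probe set gave log2 ratios of 1.01 in LXR-DKO and -0.36 in WT.

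Hk2 had LPS over control log2 ratios of 0.68 in LXR-DKO and 0.60 in WT, and Slc2a1 of 0.47 in LXR-DKO and 0.43 in WT. For Hk2, 10.8% of all genes in LXR-DKO and 7.07% in WT had a higher ratio, and for Slc2a1 16.9% in LXR-DKO and 11.1% in WT. These 4 ratios exceeded the SD between probe sets, but the other Slc2a1 probe sets in LXR-DKO, at 0.32 and 0.28, did not. Hk1 was 1.28-fold higher with LPS in LXR-DKO and 1.09-fold in WT, and Hif1a 1.10-fold in LXR-DKO and 1.21-fold in WT, where the sign for Hif1a in LXR-DKO turned with the median over its probe sets. Hk3 and Pkm differed by at most 1.09-fold with LPS in either genotype by their brightest probe sets. The other Hk3 probe set was 1.12-fold lower with LPS in LXR-DKO. Slc2a6 had log2 ratios of -0.16 in LXR-DKO and 0.54 in WT, Ldha of -0.06 in LXR-DKO and 0.20 in WT, and Slc2a3 of 0.04 in LXR-DKO and -0.76 in WT. The dim Slc2a3 probe set without a suffix was 2.69-fold lower with LPS in LXR-DKO, unlike the brightest, and 1 of the dimmer Hif1a probe sets was 1.74-fold lower there.

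The difference of the LPS responses, LXR-DKO minus WT on the log2 scale, was 1.72 for Pfkfb3, with 2.11% of 12478 genes above it, and 1.37 for its dimmer probe set. Of the 10 genes, 1 was past 2-fold upward, against 7.61% of all genes, and 0 downward, against 2.07%, with 9.67% of all genes in either direction. Slc2a3 had a difference of 0.80 and Slc2a6 of -0.70, and the other 7 genes lay between -0.26 and 0.24. The median was 0.07, beside 0.08 for all genes. The comparisons share arrays, so the LPS and genotype ratios of a gene are not independent of each other.

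**Figure D3:**
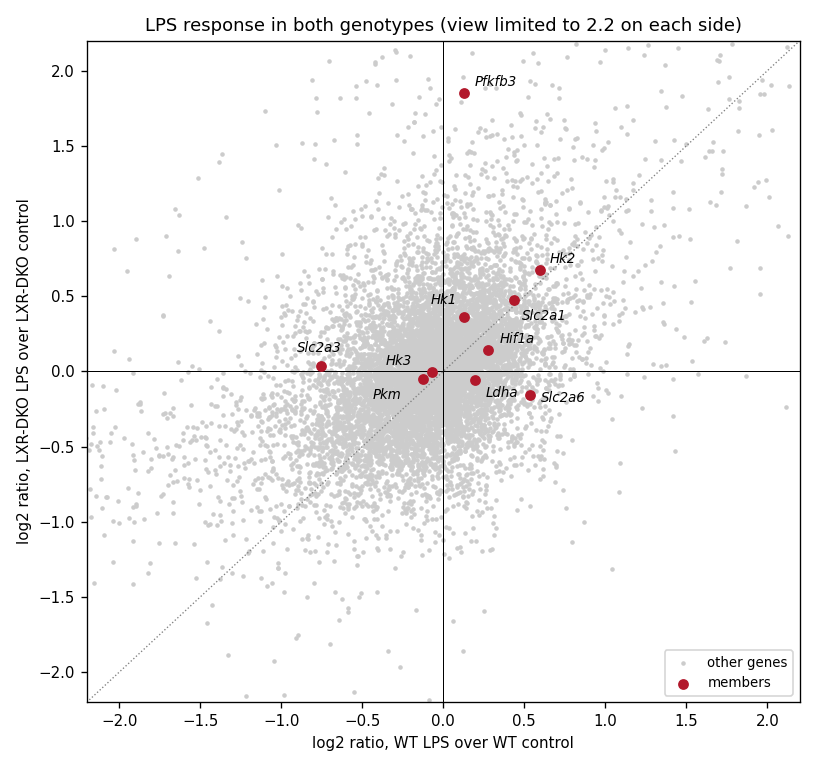
log2 LPS response in LXR-DKO on the vertical axis against that in WT on the horizontal axis for the genes that reached the floor throughout (grey) and the 10 genes (red), with the line of equal response dotted. Hk2 and Slc2a1 lie near that line, and Pfkfb3 lies far above it at 1.85 in LXR-DKO and 0.13 in WT.

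Genes whose signals followed the same pattern over the 4 arrays were found by the distance between log2 profiles, each centred on its own mean, among 9623 genes that reached the floor throughout. It was computed for the 6 genes that spanned 2-fold or more, and with only 4 arrays it is a description. For Pfkfb3 the nearest were Kdm4a at a distance of 0.20, Ttc39c at 0.24 and Gimap3 at 0.29; the signal of Kdm4a was 1066.9 in LXR-DKO LPS, 288.6 in LXR-DKO control, 176.9 in WT LPS and 141.4 in WT control. For Slc2a3 they were L1cam at 0.15, Ccdc102a and Ablim1, and for Slc2a1 Osbpl8 at 0.04, Tmem237 and Gdap10. For Hk3 they were Ss18l2 at 0.06, Myo5a and Frrs1, for Hif1a Eif4g3 at 0.04, Traf2 and Snx11, and for Slc2a6 Zfpm1 at 0.09, Psmb8 and Srgap3. Of the pairs of the 10 genes that include 1 of these 6, Hif1a and Slc2a6 were the nearest at 0.30, followed by Slc2a1 and Hk3 at 0.57, and Slc2a3 and Hk3 were the farthest at 4.66.

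The rest of the pathway was examined in lists, whose counts stand beside the shares of all genes given above: with LPS 17.8% of genes passed 2-fold upward and 8.76% downward in LXR-DKO over WT, and without LPS 12.7% and 9.28%. Egln3, Pdk1 and Pfkfb4 each stand in 2 lists. Of the other glycolytic enzymes, 13 of 15 on the array were measured, and Gapdh, Eno1 and Gpi1 were among those not analysed here. Over WT, LXR-DKO had 2 of 13 past 2-fold upward and 0 downward with LPS, and likewise 2 and 0 without. The muscle enolase gene Eno3 had signals of 317.8 in LXR-DKO LPS, 213.2 in LXR-DKO control, 45.5 in WT LPS and 64.0 in WT control, which is 6.98-fold higher in LXR-DKO with LPS and 3.33-fold without. The phosphofructokinase gene Pfkm passed with LPS at a log2 ratio of 1.18, and its homologue Pfkl without LPS at 1.09. Pgk1, the ATP-making phosphoglycerate kinase, stood at -0.83 with LPS and -0.75 without. The lactate dehydrogenase gene Ldhb was lower in LXR-DKO, at -0.98 with LPS and -0.84 without, unlike the nearly level Ldha. The list's medians were 0.15 with LPS and -0.02 without, and both changed sign among the 4 scalings tried, under which 1 to 4 genes passed upward and 0 to 2 downward with LPS. The counts without rescaling are near the shares of all genes. In the LPS response 1 of 13 passed upward in LXR-DKO, Eno2, by at least 2.87-fold, and 0 in WT, while Aldoc was at -0.74 in LXR-DKO and -0.76 in WT. The manufacturer's 3' control probe set for Gapdh had signals of 6939.4 in LXR-DKO LPS, 6938 in LXR-DKO control, 9295.5 in WT LPS and 7850.7 in WT control.

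Carriers of lactate, the end product of the route, differed in both directions. Slc16a3, the lactate exporter MCT4, had signals of 503.7 in LXR-DKO LPS, 485.2 in LXR-DKO control, 221.4 in WT LPS and 120.3 in WT control, 2.28-fold higher in LXR-DKO with LPS and 4.03-fold without. Slc16a1, the carrier MCT1, had 186.1 in LXR-DKO LPS, 378.8 in LXR-DKO control, 717.9 in WT LPS and 981.5 in WT control, 3.86-fold lower in LXR-DKO with LPS and 2.59-fold lower without. Of the 14 measured genes of pyruvate and lactate handling, 3 passed upward in LXR-DKO and 5 downward with LPS. Without LPS 1 passed upward and 2 downward. The shares of all genes were 17.8% and 8.76% with LPS, and 12.7% and 9.28% without. The list's median log2 ratio was -0.41 with LPS and -0.34 without and stayed below 0 under all 4 scalings. Under these the number upward with LPS lay between 1 and 3 and the number downward between 1 and 5. Shares of all genes moved with the scaling too. With LPS, 1538 of 12078 genes passed upward and 1724 downward under 75th percentile scaling. Hybridisation control scaling gave 3099 upward and 622 downward of 12043. Pdk3, a kinase that switches off pyruvate dehydrogenase, was at 1.44 with LPS and 0.90 without, and Pdp1, a phosphatase that switches it on, at -1.25 with LPS and -0.47 without. In the same kinase family Pdk2 stood at 1.14 with LPS and 0.31 without, but Pdk1 at -0.003 with LPS and -0.21 without. Pdp2, the other phosphatase gene listed, had the opposite sign to Pdp1, at 0.63 with LPS and 0.35 without. Of the 8 other SLC2A genes, 4 with LPS and 5 without were measured, and 0 were 2-fold apart between genotypes. Slc2a8 was the only one of them 2-fold apart in the LPS response, at -1.09 in LXR-DKO and -0.35 in WT.

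Other enzymes besides the product of Pfkfb3 also set the level of fructose bisphosphates. Fbp1, a gluconeogenic phosphatase gene, had signals of 137.9 in LXR-DKO LPS, 122.4 in LXR-DKO control, 14.3 in WT LPS and 17.0 in WT control, at least 4.77-fold higher in LXR-DKO with LPS and at least 4.24-fold without. Pfkfb2 had 12.3 in LXR-DKO LPS, 18.7 in LXR-DKO control, 59.6 in WT LPS and 58.3 in WT control, lower in LXR-DKO by at least 2.06-fold with LPS and at least 2.02-fold without. Pfkfb4 stood at a log2 ratio of LXR-DKO over WT of 0.02 with LPS and 0.63 without, and Tigar, whose product removes the activator, at -0.11 with LPS and -0.73 without. Of this list, 3 genes were measured in the LPS response of each genotype and 0 passed 2-fold.

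The list of other HIF target genes, which includes Pfkfb4 and Pdk1, had a median LPS ratio above that of all genes in both genotypes, beside small ratios of Hif1a itself. In LXR-DKO 3 of 16 measured members passed 2-fold upward and 0 downward, against 6.23% and 1.82% of all genes, with a median log2 ratio of 0.52 beside 0.02 for all genes. In WT 3 of 17 passed upward and 0 downward, against 2.93% and 4.79% of all genes, with a median of 0.42 beside -0.05. Egln3, an oxygen-sensing prolyl hydroxylase gene that HIF induces, had signals of 367.2 in LXR-DKO LPS, 82.9 in LXR-DKO control, 424.1 in WT LPS and 76.5 in WT control, 4.43-fold higher with LPS in LXR-DKO and 5.54-fold in WT. Ddit4, whose product inhibits mTOR, was 4.29-fold higher in LXR-DKO and 2.36-fold in WT, and the angiogenic factor gene Vegfa 4.16-fold in LXR-DKO and 1.96-fold in WT. Ndrg1, a gene induced by hypoxia, went opposite ways, at 0.97 in LXR-DKO and -0.57 in WT.

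Between the genotypes, 4 of 17 HIF targets passed upward in LXR-DKO with LPS and 3 of 16 without, and 0 downward in each, against 17.8% and 12.7% of all genes upward; under the 4 scalings up to 2 were downward with LPS. With LPS Vegfa was at 2.27 and Ddit4 at 2.24, and without LPS Ddit4 was at 1.37, Ankrd37 at least at 1.27 and Vegfa at 1.18. Of the 5 genes whose products restrain HIF, Egln1 was at 1.05 with LPS and 1.46 without, Egln2 at 1.09 and 0.55, Vhl at 0.88 and 1.32, Hif1an at 0.44 and 0.51, and Egln3 at -0.21 and 0.12, so Egln1 alone passed 2-fold in both conditions. Epas1, which encodes HIF-2alpha, was at -0.37 with LPS and -1.65 without. Of the 8 HIF partners and oxygen sensors, 2 passed upward and 0 downward with LPS, and 2 and 1 without, and the number upward with LPS lay between 0 and 3 under the 4 scalings.

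Genes of the branches that leave glycolysis also differed in both directions, as in every list examined. Gbe1, the glycogen branching enzyme gene, had signals of 82.1 in LXR-DKO LPS, 59.8 in LXR-DKO control, 807.9 in WT LPS and 407.5 in WT control, 9.84-fold lower in LXR-DKO with LPS and 6.81-fold lower without. The glycogen synthase gene Gys1 was at 1.79 with LPS and 1.93 without, the phosphorylase gene Pygb at 1.60 and 1.03, and Ugp2, whose product makes the glucosyl donor, at -1.37 and -1.10. Of the 13 measured genes of glycogen and hexosamine synthesis, 3 passed upward in LXR-DKO and 2 downward with LPS, and 2 and 2 without. In the LPS response, Gfpt1, the gene of the first enzyme of hexosamine synthesis, was at 1.36 in LXR-DKO and 0.37 in WT. In the pentose phosphate pathway 1 of 7 genes passed upward, Pgls at 1.51 with LPS and 1.22 without, and 1 downward, H6pd at -1.42 with LPS and -1.04 without. G6pdx was not analysed here.

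Of the regulators upstream of glycolysis, 5 of 17 passed upward in LXR-DKO with LPS and 1 downward, and 2 and 0 without LPS, against the shares of all genes given above. Under the 4 scalings the number upward lay between 4 and 6 with LPS and between 2 and 5 without. Ikbke, a kinase gene downstream of Toll-like receptors, had signals of 943.9 in LXR-DKO LPS, 227.5 in LXR-DKO control, 172.7 in WT LPS and 115.3 in WT control. Its highest value was thus in LXR-DKO LPS, and its LPS log2 ratio was 2.05 in LXR-DKO and 0.58 in WT. The difference of these responses was 1.47, and 7.61% of all genes passed 2-fold upward in that difference. The phosphoinositide kinase genes Pik3cg and Pik3cd were higher in LXR-DKO, at 2.19 and 1.65 with LPS and at 2.14 and 1.75 without. Myc, a driver of glycolytic genes, was 2.83-fold higher in LXR-DKO with LPS and 1.84-fold without, and lower with LPS at -1.14 in LXR-DKO and -1.75 in WT. Mlx, a partner of glucose-sensing transcription factors, was at -1.22 with LPS and -0.73 without, and Txnip, an inhibitor of glucose uptake, at -0.55 with LPS and 0.20 without.

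**Figure D4:**
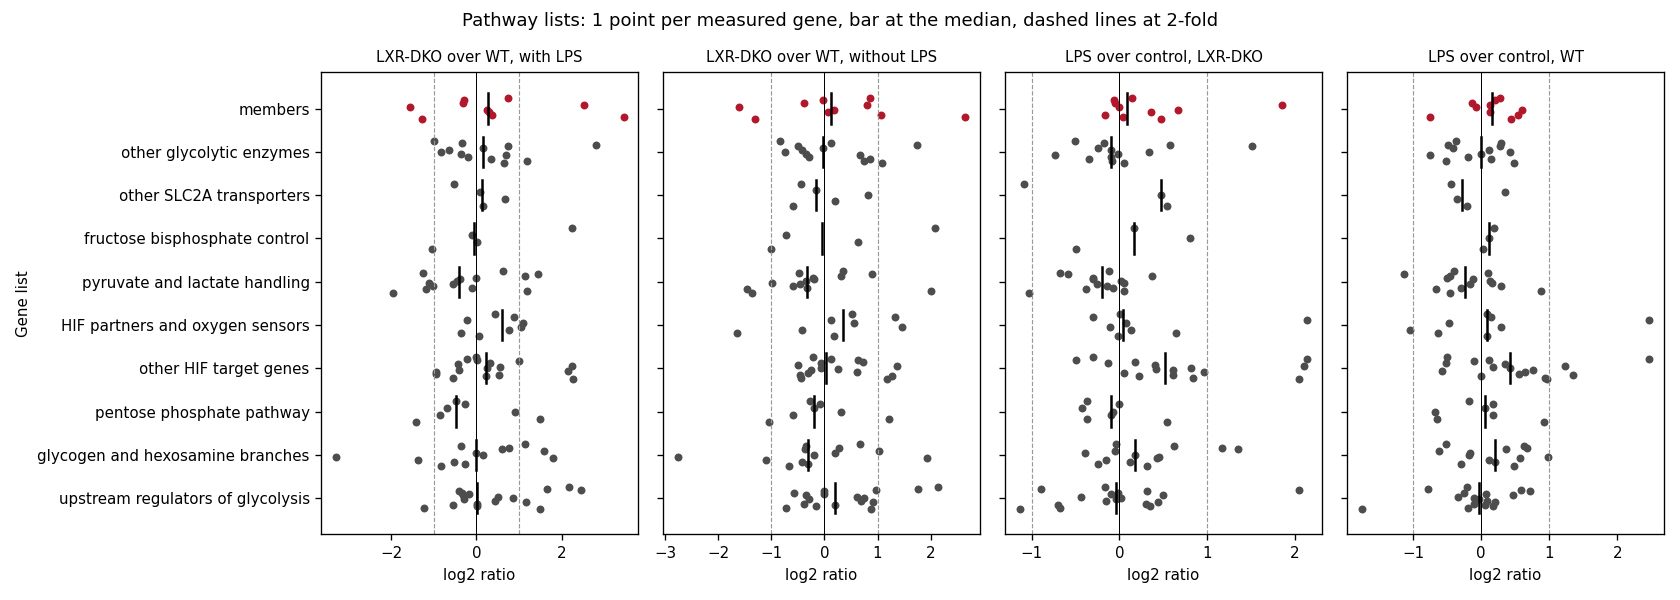
log2 ratios of the 10 genes (red) and of 9 lists of related genes (grey), 1 point per measured gene, in 4 comparisons, each panel with its own horizontal scale; the bar is the list's median and dashed lines mark 2-fold. Every list has genes on both sides of 0 in the genotype comparisons, and other HIF target genes have LPS medians of 0.52 in LXR-DKO and 0.42 in WT.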

How the data were processed

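Transcript signals of 4 cultures, 1 array each, were analysed from the table the authors deposited. They are linear intensity values, 1 for each probe set, computed with MAS5 per the submitters' processing notes, whose version and settings are not given in the sources used here. Per the labels' protocols, biotinylated cRNA came from a 2-cycle preparation, which can weaken signals far from a transcript's 3' end. No detection calls were used. Of 45101 probe sets, 64 were controls; 34945 of the others had 1 symbol in the platform annotation, 932 had several and 9160 were not listed.

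From these values, log2 ratios were computed in Python 3.11.15 with pandas 2.3.3 for 5 comparisons, with a floor at the median signal of 28.9 and the brightest probe set for each gene. With 1 array per group no test was run. The 10 genes and all lists were chosen with earlier results of these data known. All 10 were named, as were up to 4 genes of each other list with the largest ratio and both values at the floor or above, any gene needed to show that a list goes both ways, and the 3 nearest profiles; other list genes named for contrast, Eno2, Ndrg1 and Txnip among them, were chosen after their values were seen, as were Hif1an, Ankrd37, Xist, Eif2s3y and the single marker genes. Alternatives, 9 in all, changed the scaling, the floor or the probe set.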

Additional observations from a re-analysis of the deposited data

Results flagged for a closer look

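For 3 of the 10 genes the brightest probe set had LPS ratios of opposite sign in LXR-DKO and WT. The log2 ratio of Slc2a3 was 0.039 in LXR-DKO and -0.76 in WT, that of Slc2a6 -0.16 in LXR-DKO and 0.54 in WT, and that of Ldha -0.059 in LXR-DKO and 0.20 in WT. With 1 array per group the difference was not tested. The 3 values in LXR-DKO and that of Ldha in WT lay within the spread between probe sets, and those of Slc2a3 and Slc2a6 in WT beyond it. For Slc2a3, the probe set without a suffix was at -1.43 in LXR-DKO and below the floor on both WT arrays.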

How the results depend on the processing

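In all 9 alternatives Hk3 stayed at least 2-fold lower in LXR-DKO in both conditions, and Pfkfb3 at least 2-fold higher with LPS in LXR-DKO, in LXR-DKO over WT with LPS and in the difference of the responses. No called ratio turned its sign in any alternative. Slc2a1 without LPS missed 2-fold with the median over its probe sets and with unsuffixed probe sets (-0.85), and with LPS under hybridisation control scaling and with unsuffixed probe sets (-0.92). Slc2a3 with LPS was at least 0.01 with the unsuffixed probe set, whose signals were 29.2 in LXR-DKO LPS and 11.3 in WT LPS. With the WT value below the floor, this probe set does not give the size of the difference. Slc2a6 without LPS was 0.87 under 75th percentile scaling. Hif1a passed 2-fold in 4 of 9 alternatives without LPS and in 2 of 9 with LPS, under hybridisation control scaling (1.05) and with unsuffixed probe sets (1.42), and Pfkfb3 did without LPS under hybridisation control scaling (1.03). With unsuffixed probe sets 2 genes instead of 1 passed 2-fold for the LPS response in LXR-DKO and for the difference of the responses. The added one was Slc2a3 at -1.43, by its dim unsuffixed probe set. Its WT signals of 11.3 with LPS and 18.8 without were both raised to the floor. In the difference of the responses -1.43 is therefore the LXR-DKO ratio alone, with no WT response measured. Only 8 of the 10 genes had an unsuffixed probe set, and why the Slc2a3 probe sets differ was not tested. Of the single-gene values and medians recomputed under the alternatives, 462 moved by less than the spread between probe sets and 19 by more. Part of the 462 could not move. With the floor at the 25th percentile all 10 genes kept their values, and genes with 1 probe set kept theirs under the median over probe sets. The tally is thus no measure of robustness. Over all genes, the median ratio of LXR-DKO over WT with LPS was 0.15, but -0.11 with 75th percentile and 0.43 with hybridisation control scaling, and the genes past 2-fold were 2141 higher and 1053 lower, against 1538 and 1724, and 3099 and 622, under these scalings. Without LPS the share of higher genes was 57.7%, against 44.1% and 72.8%, for LPS in WT 38.0%, against 50.6% and 29.3%, and for the difference of the responses 78.6%, against 68.6% with quantile normalization. Over all genes, a floor set by the 75th percentile and one set by the 25th gave other numbers past 2-fold, 438 and 2101 for LPS in LXR-DKO (950), 338 and 2068 for LPS in WT (884), 1632 and 4658 for LXR-DKO over WT with LPS (3194), 1355 and 3928 without LPS (2575), and 429 and 3147 for the difference of the responses (1207), with fewer or more genes measured. No paired analysis was possible because each group has 1 array. Signals near the floor limit the 2 dim probe sets of Slc2a3, the dimmest of Hif1a and the dimmer one of Pfkfb3. The second brightest Slc2a3 probe set was also near the floor in WT LPS.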
